A study of Mus musculus with 68 samples.

Results

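Mouse 8-cell embryos labelled Ezhip mKO were set against 8-cell embryos labelled wild type (WT), in 5 of the 68 libraries of a study that deleted Ezhip in mouse oocytes or embryos. The members were the 3 mKO and the 2 WT libraries of the 8-cell expression table, and 1 library labelled Ezhip mHet from the same table was read as values only. The labels do not spell out mKO or mHet, and give neither the extent of the deletion, the strain, the father's genotype nor the number of embryos behind a library. Oocytes or embryos were lysed directly and their polyadenylated RNA was copied and amplified with Smart-seq2, which reads whole transcripts from very small samples. Of 14055 genes in the table, 8319 reached 1 FPKM (fragments scaled to gene length and to the total of the library) in at least 2 of the 6 libraries and were tested. The question was which transcripts differ at the third cleavage when Ezhip had been deleted.

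Ezhip, listed under its older symbol AU022751 and located on the X chromosome, encodes an inhibitor of Polycomb repressive complex 2 (PRC2). PRC2 places the H3K27me3 mark on histone H3 through its enzyme subunit Ezh2, together with Eed and Suz12, and the mark accompanies silent genes. In the mouse, H3K27me3 laid down in the oocyte is carried into the embryo, where it keeps the maternal copy of a small set of genes and of Xist silent. At the 8-cell stage the embryonic genome has taken over from maternal RNA, the blastomeres are about to compact, and the separation of trophoblast from inner cell mass has not yet taken place.

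The libraries did not group by genotype, and this bears on every comparison given here. Across genes, the highest Pearson correlation of any pair was 0.979, between mKO replicate 3 and WT replicate 2, and the correlation between the WT libraries was 0.955. The labels number the libraries, with mKO replicates 1 and 2, mHet replicate 1 and WT replicate 1 numbered 20 to 23, and mKO replicate 3 and WT replicate 2 numbered 24 and 25. No label calls this a batch. Rn45s, the ribosomal RNA precursor, took 3.18% to 6.03% of the summed FPKM in the libraries numbered 20 to 23, against 1.65% in mKO replicate 3 and 1.53% in WT replicate 2. Summed FPKM of 4 Y-linked transcripts was 11.8 to 40.6 in mKO, 2.91 in mHet, and 13.1 and 23.0 in WT, so Y-linked RNA was present in every library. The part of library numbering, Rn45s and Y-linked RNA in the differences given here was not tested beyond the alternatives named beside them. Of the 8-cell marker genes, 10 of 14 were kept, and their summed FPKM was 889 to 1075 in mKO libraries, against 600 and 935 in WT libraries. Markers of cumulus, oviduct and fibroblast cells summed to at most 1.44 FPKM in any library. Only 5 of 16 cumulus, 4 of 10 oviduct and 4 of 10 fibroblast markers were among the 14055 genes. Their low sums therefore do not show that such cells were absent. Of the blood and sperm markers given next, 4 of 12 and 2 of 10 were among those genes. Blood and immune markers, mostly the globin genes Hba-a1 and Hba-a2, summed to 17.9, 4.23 and 18.6 FPKM in mKO, 8.45 in mHet, and 11.6 and 18.3 in WT, and sperm markers to 1.62 to 6.57 FPKM in mKO, 1.07 in mHet, and 1.94 and 1.79 in WT; their part in the results was not tested. Read depth cannot be read from FPKM, and because the labels do not say that replicates came from separate matings or collections, the p-values measure only the spread between these libraries. In whole embryos, fewer cells of a kind and less RNA per cell cannot be told apart.

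**Figure D1:**
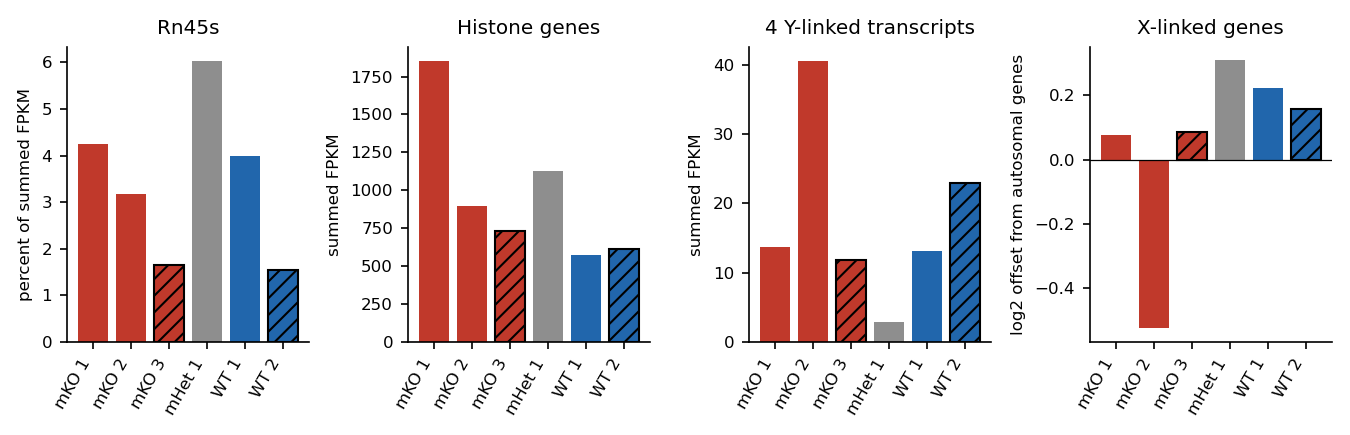
Bars give, for each 8-cell library (mKO 1 to 3, mHet 1, WT 1 and 2), the share of summed FPKM taken by Rn45s in percent, the summed FPKM of 60 replication-dependent histone genes, the summed FPKM of 4 Y-linked transcripts, and the median log2 offset of X-linked from autosomal genes. The hatched bars are the libraries numbered 24 and 25, which have the lowest Rn45s shares, 1.65% in mKO 3 and 1.53% in WT 2; mKO 2 alone has a negative X-linked offset, -0.52.

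Ezhip itself was close to 0 at this stage in all genotypes. It had 0.0836, 0 and 0.0764 FPKM in the mKO libraries, 0.368 FPKM in the mHet library, and 1.50 and 0.229 FPKM in the WT libraries. Every mKO library lay below both WT libraries, but only WT replicate 1 exceeded 1 FPKM, so the gene was not kept and not tested. The low WT level limits how far the transcript can check the labels of these 8-cell libraries. At the late 2-cell stage, in separate embryos, Ezhip had 0 and 0.585 FPKM in mKO, against 15.9 and 15.7 FPKM in WT. The log2 difference there was -3.74 (limma adjusted p = 0.0433).

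Among all genes tested, 1 passed the threshold of an adjusted p of 0.05 (limma with Benjamini-Hochberg adjustment over 8319 genes), which is 0.012%. It was lower in mKO, and none was higher (0.0%). At an unadjusted p under 0.05 there were 334 genes (4.01%), of which 89 (1.07%) were higher and 245 (2.95%) lower in mKO. That share is below what a cutoff of 0.05 gives on average when no gene differs. The 334 genes are therefore not a set of established changes, and genes named by this cutoff are given as values. Libraries of the groups did not overlap for 1382 genes (16.6%), 621 of them higher (7.46%) and 761 lower (9.15%). Over all genes the median log2 difference was -0.04, and the mean was higher in mKO for 45.1% and lower for 54.9% of genes. The split of the 334 genes moved with scaling and with 1 library: median-ratio scaling gave 145 higher and 237 lower genes, and without WT replicate 2 there were 188 higher and 129 lower. The median 95% interval of a single gene, not adjusted for the number of genes, spanned 0.77 to either side on the log2 scale. Most single-gene differences below that size could not be told from 0 with 3 and 2 libraries. Differences well above it also failed the adjusted threshold, such as -2.64 for Dab2, -2.40 for Snx10 and 2.17 for Serping1.

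**Figure D2:**
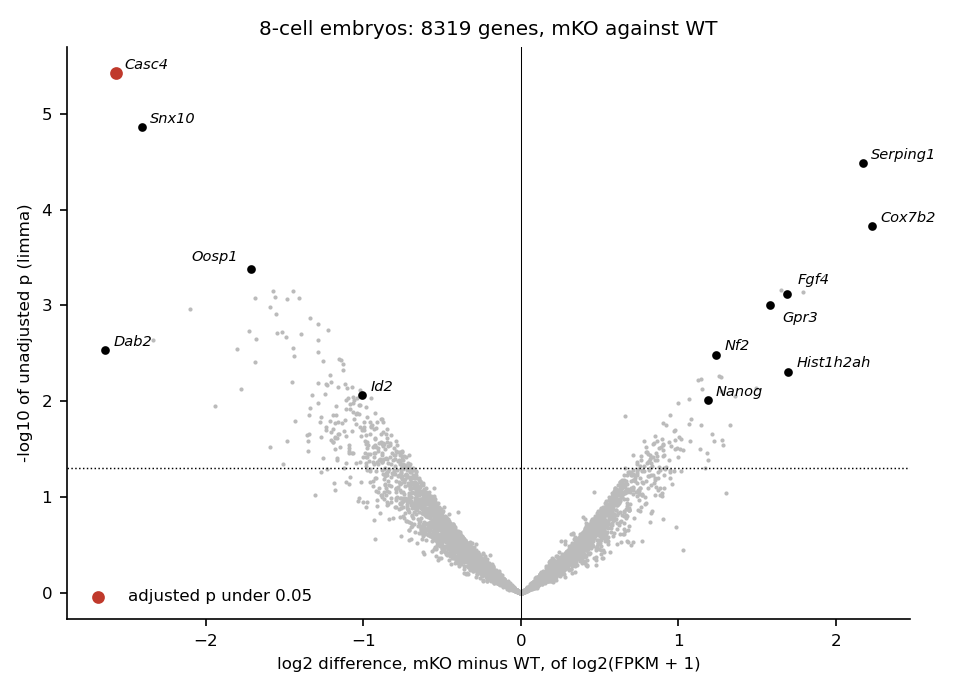
Each point is 1 of 8319 genes, with the log2 difference (mKO minus WT) on the horizontal axis and -log10 of the unadjusted limma p on the vertical axis; the dotted line marks the unadjusted threshold of 0.05. Casc4, the large red point, is the single gene with an adjusted p under 0.05, and black points are other genes named in the text.

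Casc4, which encodes a membrane protein of the Golgi apparatus, was the gene that fell. It had 0.623, 0.465 and 0.569 FPKM in the mKO libraries, 1.17 FPKM in the mHet library, and 9.28 and 7.27 FPKM in the WT libraries. The mKO libraries lay close together, far below both WT libraries, and the mHet library lay between the groups but nearer to mKO. The log2 difference was -2.57 (SE 0.31, 95% interval -3.26 to -1.88, limma adjusted p = 0.0313). Within the libraries numbered 20 to 23 the difference was -2.74, and between the pair numbered 24 and 25 it was -2.40. Since the libraries of the groups do not overlap, no choice among them and no pseudocount could change its sign. The difference kept its sign under every alternative run, from -3.68 to -2.41, but the limma adjusted p was above 0.05 with a pseudocount of 0.1, without the filter, with median-ratio scaling, with a sex term, in the libraries numbered 20 to 23 alone and without mKO replicate 1 or 2 or WT replicate 1 or 2.

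The 250 bases before the annotated start of Casc4 are shown because it was the single gene called, and those of Oosp1 and Fgf4 because they are named below in opposite directions and differ in CG content. The sequences and names are from RefSeq on GRCm38.p6, where Casc4 is listed as Golm2; CG dinucleotides are in capitals, and each is written 5′ to 3′ on the strand of the gene. The window of Casc4 is chr2:121866720-121866969 (plus strand), that of Fgf4 chr7:144861136-144861385 (plus strand) and that of Oosp1 chr19:11691052-11691301 (minus strand).
Casc4: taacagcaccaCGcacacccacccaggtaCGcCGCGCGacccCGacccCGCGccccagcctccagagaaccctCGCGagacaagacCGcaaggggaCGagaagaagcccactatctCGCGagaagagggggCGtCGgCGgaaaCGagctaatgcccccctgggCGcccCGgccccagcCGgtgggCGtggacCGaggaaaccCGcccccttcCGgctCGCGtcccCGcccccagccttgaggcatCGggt
Fgf4: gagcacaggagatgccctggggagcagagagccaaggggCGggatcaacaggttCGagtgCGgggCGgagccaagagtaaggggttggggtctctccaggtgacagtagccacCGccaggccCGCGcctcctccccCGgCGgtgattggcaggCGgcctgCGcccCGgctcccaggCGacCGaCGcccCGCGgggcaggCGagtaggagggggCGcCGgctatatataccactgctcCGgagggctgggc
Oosp1: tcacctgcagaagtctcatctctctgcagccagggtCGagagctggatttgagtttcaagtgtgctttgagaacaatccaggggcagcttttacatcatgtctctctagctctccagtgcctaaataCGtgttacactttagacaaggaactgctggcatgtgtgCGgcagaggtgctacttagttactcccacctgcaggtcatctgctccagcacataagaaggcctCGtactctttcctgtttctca
The windows hold 29 CG dinucleotides for Casc4, 21 for Fgf4 and 4 for Oosp1. Among the kept genes with an entry, 6672 or 80.2%, the median was 18; 13.0% held more than Casc4 and 93.9% held more than Oosp1. The letters TATAAA, searched on the gene's strand, were in none of these windows, against 7.43% of the kept genes' windows. DNA methylation and histone marks were not measured in these libraries.

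The genes nearest to the threshold came next on both sides. Snx10, a sorting nexin that acts in endosomal membrane traffic, had 1.13, 0.911 and 1.43 FPKM in mKO, 4.13 in mHet, and 8.25 and 12.9 in WT, a log2 difference of -2.40 (SE 0.34, limma adjusted p = 0.0578). Serping1, the inhibitor of the first complement component, had 6.19, 5.17 and 5.97 FPKM in mKO, 2.201 in mHet, and 0.212 and 0.850 in WT, a log2 difference of 2.17 (SE 0.33, limma adjusted p = 0.0911). Neither passed, although for both genes the groups were far apart and the mHet library lay between them. Both passed with the library-number set as a term in the fit, with limma adjusted p of 0.0122 for Snx10 and 0.0183 for Serping1; over all alternatives, that of Snx10 was 1.11e-05 to 0.427 and that of Serping1 0.000270 to 0.645, the lowest of each with the replicate number as a block.

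Of the genes with the smallest p on the lower side, 11 beside Casc4 met the rule for naming, with log2 differences of -2.40 to -1.29 and limma adjusted p of 0.0578 to 0.645. The rule takes only genes whose mKO and WT libraries do not overlap, here and on the higher side. Oosp1, which encodes a secreted protein of the oocyte, had 1.94, 1.60 and 2.48 FPKM in mKO, 3.5 in mHet, and 11.7 and 6.54 in WT (log2 difference -1.71). Fancb, an X-linked member of the Fanconi anaemia core complex of DNA repair, had 0.198, 0.0707 and 0.407 FPKM in mKO, 0.684 in mHet, and 1.72 and 3.72 in WT (log2 difference -1.56). In both genes every mKO library and the mHet library lay below both WT libraries. Gpx3 and Gsta4, a secreted glutathione peroxidase and a glutathione transferase, averaged 1.94 ± 1.03 and 1.79 ± 0.259 FPKM in mKO (SD, n = 3), against 7.29 ± 0.467 and 6.08 ± 1.13 FPKM in WT (SD, n = 2). Tppp3, a tubulin-binding protein, averaged 2.10 ± 0.911 FPKM in mKO and 8.02 ± 0.623 FPKM in WT. The others were the membrane protein Tm4sf5, the immune ligand H60b, the lectin Cd209g, the deaminase Hrsp12 and Sdhaf1, an assembly factor of respiratory complex II, whose mKO means were 0.282 to 1.59 FPKM, against WT means of 2.96 to 6.23 FPKM. None of these 11 passed.

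The 12 named genes on the higher side had log2 differences of 1.13 to 2.23 and limma adjusted p of 0.0911 to 0.999. Fgf4, the ligand by which cells of the inner cell mass direct neighbours to primitive endoderm, had 6.86, 9.74 and 6.32 FPKM in mKO, 4.10 in mHet, and 0.908 and 2.63 in WT. All mKO libraries lay above both WT libraries, with the mHet library between them (log2 difference 1.69, SE 0.37, limma adjusted p = 0.514). Gpr3, the receptor that holds the mouse oocyte in meiotic arrest, had 11.5, 10.1 and 6.17 FPKM in mKO, 3.76 in mHet, and 2.93 and 1.83 in WT. Nf2, which encodes merlin, an upstream activator of the Hippo pathway, had 12.5, 13.0 and 11.3 FPKM in mKO, 17.2 in mHet, and 3.60 and 5.86 in WT, so the mHet library lay outside the range of both groups. Cox7b2, a subunit form of cytochrome c oxidase, had 7.87, 2.75 and 4.68 FPKM in mKO, 9.05 in mHet, and 0 and 0.497 in WT. Defb42, a beta-defensin, averaged 5.87 ± 2.41 FPKM in mKO (SD, n = 3) and 1.10 ± 0.0678 FPKM in WT (SD, n = 2). Zfyve20, which encodes the endosomal protein rabenosyn-5, averaged 22.9 ± 8.96 FPKM in mKO and 8.45 ± 0.0262 FPKM in WT. Ankmy2 averaged 23.7 ± 4.61 FPKM in mKO and 10.2 ± 1.24 FPKM in WT. The fatty acid carrier Fabp4, the autophagy enzyme Atg10, the histone gene Hist1h2ah and the short transcript Mir703, whose reads may come from an overlapping transcript, complete the set. None of the 12 passed.

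**Figure D3:**
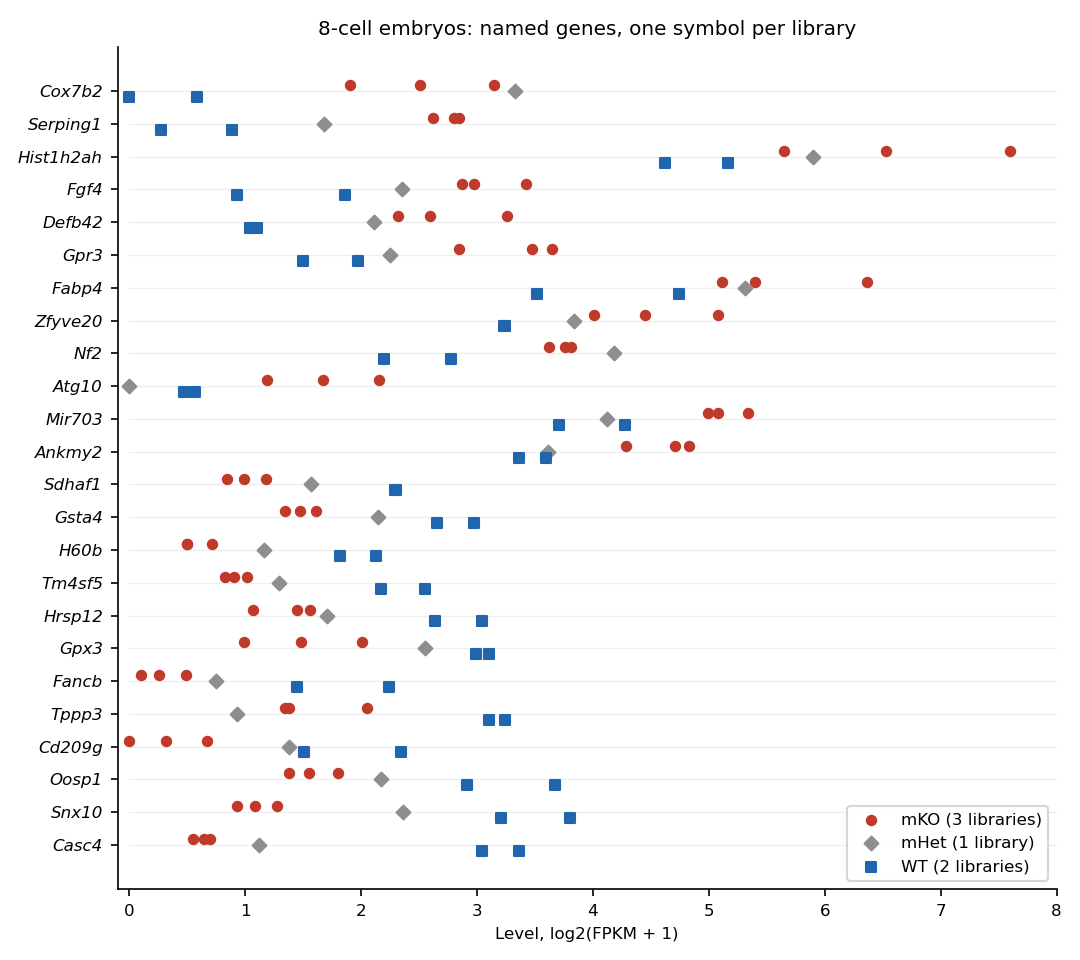
Levels of the 24 named genes on log2(FPKM + 1), with 1 symbol per library: mKO in red circles, mHet as a grey diamond, WT in blue squares. The mHet library lies between the groups for 11 of the 12 lower genes and for 6 of the 12 higher genes.

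The single mHet library entered the filter and the fit as a group of its own but no contrast, and its values were set beside these genes. It lay between the mKO and WT libraries for 17 of the 24 named genes (70.8%), against 231 of the 1382 genes whose libraries do not overlap (16.7%). It was nearer to the mKO mean for 16 of the 24, against 59.4% of the 1382 genes. The named genes have wide gaps between the groups, which leaves more room for a library to fall between them, and 1 library has no replicate error.

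PRC2 and its partners came first among the gene groups because Ezhip acts on that complex. Of the PRC2 core genes 6 were kept, 2 with a higher and 4 with a lower mean in mKO, and none had an unadjusted p under 0.05 (median log2 difference -0.13, against -0.04 for all genes). Suz12, a scaffold subunit, had 46.3, 40.1 and 55.1 FPKM in mKO, against 26.5 and 38.4 FPKM in WT (log2 difference 0.54, 95% interval -0.20 to 1.27). The groups did not overlap, but the interval includes 0. Ezh2, the methyltransferase, differed by -0.26 (95% interval -0.99 to 0.48) and Eed, which binds the mark, by -0.28 (95% interval -1.05 to 0.50). Of the accessory subunits 4 were kept, with differences of -0.33 to 0.14.

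PRC1, the complex that modifies histone H2A at Polycomb targets, and the PR-DUB enzymes that reverse this had 19 genes kept. Of these, 11 were higher and 8 lower in mean. With an unadjusted p under 0.05 there was 1 in each direction (5.26% each, against 1.07% higher and 2.95% lower of all genes). Bmi1, a PRC1 ring-finger subunit, had 2.51, 2.60 and 3.70 FPKM in mKO, 4.22 in mHet, and 5.79 and 6.95 in WT. Kdm2b, the CpG-binding subunit of a variant PRC1, had 19.4, 26.3 and 16.9 FPKM in mKO, 17.3 in mHet, and 10.2 and 11.5 in WT. In both genes the groups did not overlap; the mHet library lay between them for Bmi1 and within the mKO range for Kdm2b. Their log2 differences were -0.91 and 0.87, each with a limma adjusted p of 0.999.

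Genes whose maternal copy is silenced through oocyte H3K27me3 had 9 kept members, 4 higher and 5 lower, none with an unadjusted p under 0.05 (median -0.20). The median was -0.38 with a pseudocount of 0.1, and 0.23 without mKO replicate 2, when 5 were higher and 4 lower. Etv6 and Gab1, a transcription factor and a signalling adaptor, were higher in mean, by 0.64 and 0.53. Bbx and the amino acid transporter Slc38a4 were lower in mean, by -0.66 and -0.58. In each of these 4 genes the groups did not overlap. In the whole list 3 higher and 2 lower members did not overlap, against 7.46% and 9.15% of all genes. Sfmbt2 was not kept. Xist, the RNA that silences an X chromosome, had 25.2, 4.45 and 42.4 FPKM in mKO, 73.4 in mHet, and 24.8 and 20.0 in WT, so the mKO libraries lay on both sides of the WT libraries. Gadd45b, from the list of DNA methylation enzymes and cofactors, had 1.25, 1.01 and 1.03 FPKM in mKO, 0.680 in mHet, and 4.37 and 3.06 in WT (log2 difference -1.16, limma adjusted p = 0.821), and it was the only one of 9 kept members of that list with an unadjusted p under 0.05.

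Pluripotency factors were measured well at this stage, with 22 kept. Of these 14 were higher (63.6%, against 45.1% of all genes) and 8 lower in mean (median 0.12). Without WT replicate 1, however, 11 were higher and 11 lower (median 0.007). At an unadjusted p under 0.05, 2 were higher (9.09%, against 1.07% of all genes). Nanog, a core factor of the inner cell mass, had 26.6, 31.5 and 25.4 FPKM in mKO, 12.2 in mHet, and 7.55 and 17.6 in WT. Klf17, a zinc-finger factor of early cleavage, had 93.5, 112 and 53.0 FPKM in mKO, 56.6 in mHet, and 47.5 and 31.5 in WT. In both genes all mKO libraries lay above both WT libraries; the log2 differences were 1.19 and 1.07, with a limma adjusted p of 0.999. Pou5f1, which encodes Oct4, differed by -0.03 (95% interval -0.78 to 0.73). Klf17 also belongs to the genes of major genome activation and of the 8-cell to morula stage. Of 28 kept, 22 had a higher mean in mKO (78.6%, against 45.1% of all genes) and 6 a lower one (median 0.25). With an unadjusted p under 0.05 there were 2, both higher (7.14%, against 1.07% of all genes). That median was between 0.11 and 0.32 when single libraries were left out, but without WT replicate 1 the split was 16 higher and 12 lower. At an unadjusted p under 0.05 none was higher without mKO replicate 1 or 2, and 1 was lower without mKO replicate 1.

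Maternal and 2-cell RNA showed no common direction. Of 37 oocyte and maternal-effect genes kept, 15 were higher and 22 lower in mean (median -0.05). Those with an unadjusted p under 0.05 were Gpr3 and Obox5, higher (5.41%, against 1.07% of all genes), and Oosp1, lower (2.70%, against 2.95%). Obox5, an oocyte-specific homeobox gene, had 1.71, 1.96 and 2.17 FPKM in mKO, 0.925 in mHet, and 1.23 and 0.125 in WT (log2 difference 0.89). The whole list summed to 4310, 4693 and 4259 FPKM in mKO, 3572 FPKM in mHet, and 4646 and 3865 FPKM in WT, so the groups overlapped. Of 14 genes of the 2-cell stage kept, 7 were higher and 7 lower in mean. With an unadjusted p under 0.05 there was 1 in each direction (7.14% each, against 1.07% higher and 2.95% lower of all genes). Gm13119 had 2.23, 2.89 and 3.86 FPKM in mKO, 1.06 in mHet, and 1.07 and 0.869 in WT, and it was also higher in mKO at the late 2-cell stage, at 19.3 ± 0.461 FPKM on average in mKO and 9.27 FPKM in WT (limma adjusted p = 0.379). Tdpoz1 had 0.989, 0.624 and 1.57 FPKM in mKO, 0.636 in mHet, and 4.43 and 1.76 in WT (log2 difference -0.94).

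Of 5 trophoblast factors kept, Id2, an inhibitor of helix-loop-helix factors, had 0.872, 0.965 and 1.37 FPKM in mKO, 0.472 in mHet, and 3.58 and 2.73 in WT (log2 difference -1.01). Gata3, a trophoblast transcription factor, had 1.29, 1.36 and 1.36 FPKM in mKO, against 2.46 and 2.39 FPKM in WT (log2 difference -0.55). Tfap2c, which acts upstream of trophoblast genes, had 29.9, 36.7 and 23.6 FPKM in mKO, against 21.3 and 17.5 FPKM in WT (log2 difference 0.59). The groups did not overlap for each of these 3 genes, with Id2 and Gata3 lower and Tfap2c higher in mKO, and none passed. Sbno1 did not overlap either and was higher in mKO (log2 difference 0.30). In the whole list 3 members were higher and 2 lower in mean (median 0.22). Libraries did not overlap for 2 higher and 2 lower members, against 7.46% and 9.15% of all genes. Among primitive endoderm genes, Dab2, an endocytic adaptor, had 0.333, 0.825 and 8.93 FPKM in mKO, 5.21 in mHet, and 11.0 and 26.1 in WT. That log2 difference of -2.64 (SE 0.70, limma adjusted p = 0.763) was the most negative of all 8319 genes, but mKO replicate 3 lay far above the other mKO libraries. Gata4, a primitive endoderm factor, had 8.70, 10.8 and 4.97 FPKM in mKO, 5.72 in mHet, and 4.02 and 3.20 in WT (log2 difference 0.94).

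The 4 FGF genes named are those of the list with the smallest p, so they do not stand for the whole list. Of 16 kept, 6 had a higher and 10 a lower mean in mKO (median -0.05). With an unadjusted p under 0.05 there was 1 in each direction (6.25% each, against 1.07% higher and 2.95% lower of all genes). The most negative difference, -0.87, belonged to a member not named here. Besides the ligand Fgf4, given above, the receptor Fgfr2 had 5.56, 6.29 and 5.94 FPKM in mKO, 4.61 in mHet, and 8.85 and 11.7 in WT (log2 difference -0.69). The receptor Fgfr3 had 0.781, 0.402 and 1.20 FPKM in mKO, against 2.07 and 1.80 FPKM in WT (log2 difference -0.73). Spry4, a feedback inhibitor induced by FGF signals, had 0.433, 0.300 and 0.961 FPKM in mKO, against 1.68 and 1.37 FPKM in WT (log2 difference -0.71). For these 3 genes the mKO libraries all lay below both WT libraries, at levels near 1 FPKM for Fgfr3 and Spry4, and none passed (limma adjusted p = 0.999 each). In the whole FGF list 2 higher and 4 lower members did not overlap, against 7.46% and 9.15% of all genes. Of 17 Hippo genes kept, 9 were higher and 8 lower, and Nf2 was the only one with an unadjusted p under 0.05. Vgll4 and Amot, regulators of the pathway's transcription factors, were lower in mean by -0.62 and -0.70.

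Adhesion, polarity and compaction genes had 25 kept members, 5 with a higher and 20 with a lower mean (80.0%, against 54.9% of all genes). The median was -0.18, and none had an unadjusted p under 0.05. Cldn7, a tight-junction claudin, had 52.2, 40.9 and 97.2 FPKM in mKO, against 107 and 103 FPKM in WT (log2 difference -0.82), and Krt8, a keratin of the first epithelium, had 3.72, 0.548 and 1.84 FPKM in mKO, against 4.94 and 3.17 FPKM in WT (log2 difference -0.86). This count rested on WT replicate 2: without it, 12 members were higher and 13 lower (median -0.04).

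Membrane traffic genes were looked at around Casc4 and Snx10. Of 23 Golgi genes kept, 8 had a higher and 15 a lower mean, and Stx6, a SNARE of the trans-Golgi network, was the only member besides Casc4 with an unadjusted p under 0.05. It had 0.288, 0.319 and 0.591 FPKM in mKO, 0.556 in mHet, and 1.26 and 1.35 in WT (log2 difference -0.73). Of 20 sorting nexins, 5 were higher and 15 lower; Snx22 had 1.62, 1.96 and 3.00 FPKM in mKO, 5.40 in mHet, and 6.56 and 5.11 in WT (log2 difference -1.12). The medians were -0.10 for the Golgi list and -0.15 for the sorting nexins, against -0.04 for all genes. Without WT replicate 2 both turned, to 13 higher and 9 lower Golgi genes (median 0.20) and 12 higher and 8 lower sorting nexins (median 0.07). Of 33 lysosome and endosome genes, 9 were higher and 24 lower (72.7%, against 54.9% of all genes), with a median of -0.20. Without WT replicate 2, however, 22 were higher and 11 lower (median 0.14). Beside Serping1, the complement and serpin list held Serpine2, a protease inhibitor with 1.76, 1.89 and 5.54 FPKM in mKO, against 8.38 and 14.3 FPKM in WT, and the complement regulator Cd55 with 1.12, 1.38 and 1.23 FPKM in mKO, against 3.05 and 3.18 FPKM in WT.

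Of 21 p53 and integrated stress response genes, 7 were higher and 14 lower in mean (median -0.20). At an unadjusted p under 0.05, 1 was higher (4.76%) and 3 were lower (14.3%), against 1.07% and 2.95% of all genes; the 3 became 1 with median-ratio scaling, without WT replicate 1 and without mKO replicate 2. Ddit3, which encodes the stress factor CHOP, had 0.632, 1.80 and 4.08 FPKM in mKO, 4.247 in mHet, and 5.63 and 5.40 in WT, and Ccng1, a p53 target, had 15.6, 1.05 and 8.60 FPKM in mKO, 7.11 in mHet, and 16.7 and 20.8 in WT. Ei24, another p53-induced gene, was on the other side, with 102, 111 and 89.0 FPKM in mKO, 47.9 in mHet, and 63.4 and 41.4 in WT (log2 difference 0.95). Of 27 cyclins and kinases, 10 were higher and 17 lower in mean. At an unadjusted p under 0.05, 2 were lower (7.41%, against 2.95% of all genes) and none higher. The count of 2 became 1 to 3 when single mKO libraries were left out. Ccne2, an S-phase cyclin, had 2.64, 2.47 and 4.29 FPKM in mKO, 1.41 in mHet, and 7.56 and 10.4 in WT (log2 difference -1.29, limma adjusted p = 0.775). Of 17 glycolysis and lactate genes, 9 were higher and 8 lower in mean (median 0.07), and 3 (17.6%, against 2.95% of all genes) were lower at an unadjusted p under 0.05. They were the lactate and pyruvate carrier Slc16a1 and the enzymes Tpi1 and Ldhb, with differences of -1.01, -0.90 and -0.77. None had such a p without mKO replicate 1, and the median was -0.55 without WT replicate 1 and 0.40 without WT replicate 2.

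**Figure D4:**
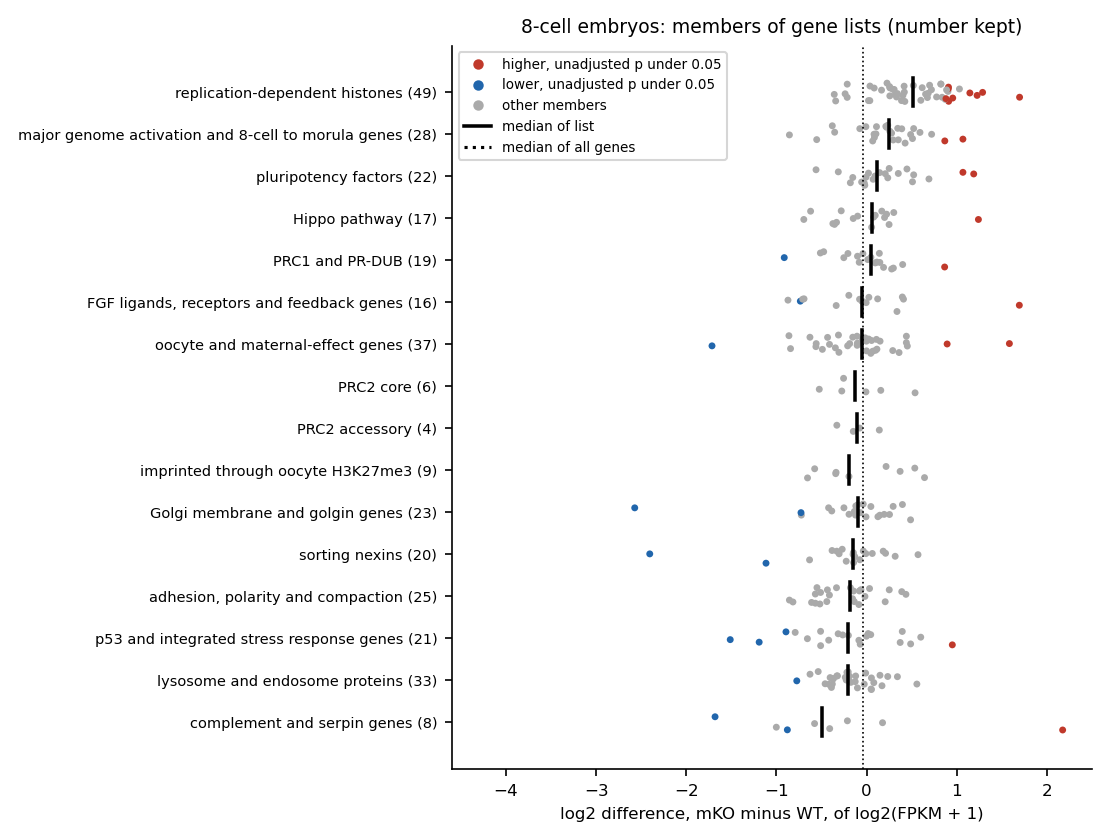
Each dot is a kept gene of a list, placed by its log2 difference (mKO minus WT); red and blue dots have an unadjusted p under 0.05, short bars are list medians and the dotted line is the median of all genes, -0.04. The histone list has the highest median of those drawn, 0.52, and the complement and serpin list the lowest, -0.49.

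Replication-dependent histone genes, which supply histones in S phase and whose messages normally lack a poly(A) tail, had 49 of 60 genes kept. Of these 44 (89.8%, against 45.1% of all genes) had a higher and 5 a lower mean in mKO, with a median of 0.52. At an unadjusted p under 0.05, 9 were higher (18.4%, against 1.07% of all genes) and none lower. By class, the H2A genes had a median of 0.88 (15 of 16 higher, 7 with an unadjusted p under 0.05), against 0.24 to 0.41 for the H1, H2B, H3 and H4 genes. Hist1h2ah had 192, 91.1 and 49.1 FPKM in mKO, 58.8 in mHet, and 23.6 and 34.9 in WT. Hist1h2ag had 131, 52.1 and 34.3 FPKM in mKO, 61.4 in mHet, and 24.5 and 27.2 in WT. In both genes mKO replicate 1 was far above the other mKO libraries. Summed over the 60 genes, the level was 1853, 895 and 733 FPKM in mKO, 1128 FPKM in mHet, and 569 and 612 FPKM in WT (two-sided exact permutation p = 0.2; the smallest possible with 3 and 2 libraries is 0.1). Histone copies are nearly identical in sequence, so reads may be split among them and single members are uncertain. Without WT replicate 2 the list had 23 members higher and 26 lower (median -0.01), and without mKO replicate 1 it had 31 higher and 13 lower (median 0.19).

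The WT libraries also differed from each other along the time course. Genes were classed from WT libraries of other tables of the study: 682 kept genes were at least 2 log2 units higher at embryonic day 3.5 (E3.5, the blastocyst) than at the late 2-cell stage, and 1190 were at least 2 units lower, across tables that were normalized separately. Of the 682 genes of the later stage, 475 (69.6%) had a lower mean in mKO at the 8-cell stage and 66 (9.68%) were lower at an unadjusted p under 0.05, against 54.9% and 2.95% of all genes. Of the 1190 genes of the earlier stage, 610 were higher and 580 lower (median 0.01). The median of the later-stage genes was -0.18 against both WT libraries and -0.50 without WT replicate 1, but 0.10 without WT replicate 2, when 399 of 673 were higher in mKO. In single libraries, the median of later-stage genes minus that of earlier-stage genes was -0.05, -0.23 and 0.01 in mKO, -0.04 in mHet, and -0.10 and 0.34 in WT. WT replicate 2 thus stood above the other 5 libraries, and the mKO libraries lay on both sides of WT replicate 1. Named genes of the later-stage class include Casc4 and Gsta4, lower in mKO, and Hist1h2ah and Mir703, higher in mKO. Those of the earlier-stage class include Oosp1, lower in mKO, and Fgf4, Gpr3 and Defb42, higher in mKO.

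**Figure D5:**
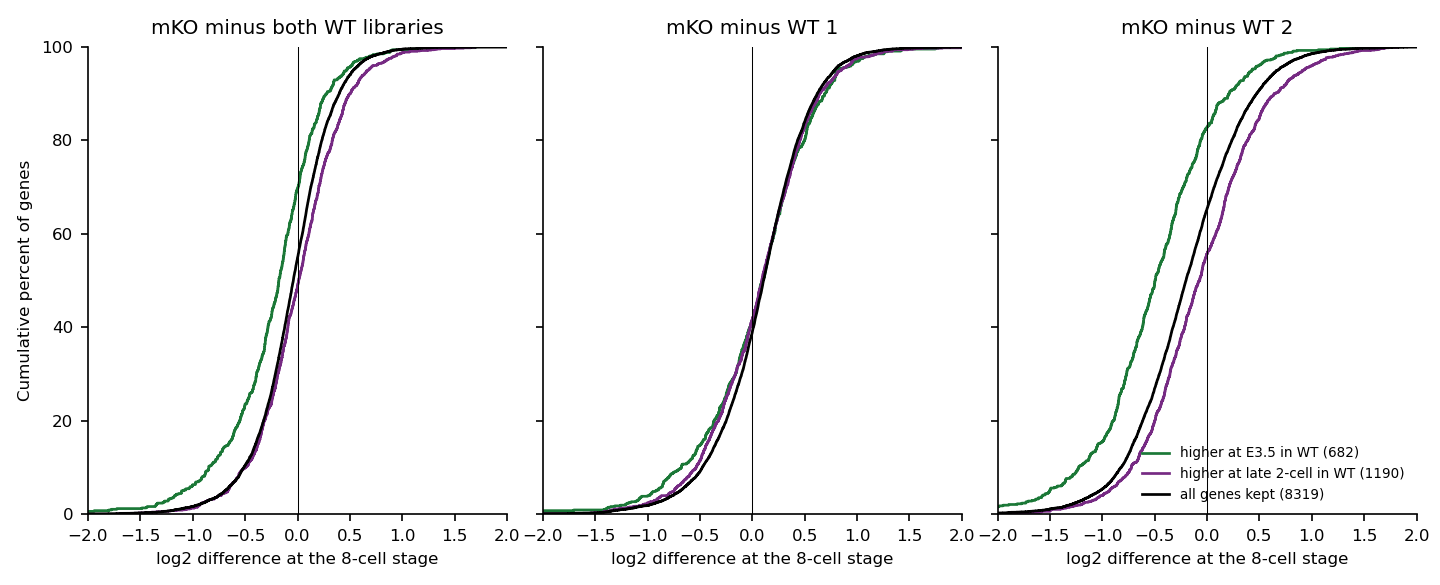
Cumulative percent of genes by log2 difference at the 8-cell stage, with mKO set against both WT libraries (left), WT 1 (middle) and WT 2 (right); green, 682 genes higher at E3.5 than at the late 2-cell stage in WT; purple, 1190 genes with the opposite order; black, all 8319 genes. The classes separate against WT 2 and nearly coincide against WT 1.

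X-linked genes were lower in mean for 213 of 268 kept (79.5%, against 54.9% of all genes; median -0.35). At an unadjusted p under 0.05, 24 were lower (8.96%, against 2.95% of all genes) and none higher. Their offset from autosomal genes was 0.08, -0.52 and 0.09 on the log2 scale in mKO, 0.31 in mHet, and 0.22 and 0.16 in WT (difference of means -0.31, two-sided exact permutation p = 0.4). The value of mKO replicate 2 stood apart, and this library also had the highest Y-linked sum, 40.6 FPKM, and the lowest Xist, 4.45 FPKM. Without it, 175 genes were lower and 93 higher (median -0.17), and 10 were lower at an unadjusted p under 0.05. Besides Fancb, the phosphatase gene Mtm1 had 0.0533, 0.246 and 0.538 FPKM in mKO, 0.426 in mHet, and 1.48 and 4.51 in WT, and Tktl1, a transketolase-like gene, had 4.18, 2.19 and 7.84 FPKM in mKO, 8.08 in mHet, and 10.6 and 16.9 in WT. In these genes mKO replicates 1 and 3 lay below WT as well. That is no independent observation, because Fancb was named for groups that do not overlap and the others for a small p. Of the 268 genes, libraries did not overlap for 65 lower and 2 higher ones, against 9.15% and 7.46% of all genes.

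The same genes were then read in the other tables, whose embryos are separate samples from those of the 8-cell stage. Casc4 was at most 0.153 FPKM in oocytes and at most 0.108 FPKM at the 1-cell stage in any genotype. At the late 2-cell stage it had 0.398 and 1.55 FPKM in mKO, against 0.872 and 0.831 FPKM in WT. In the first E3.5 table it had 0.772 and 0.711 FPKM in mKO, 10.1 and 4.64 FPKM in mHet, and 2.78 and 20.6 FPKM in WT (log2 difference -2.38, limma adjusted p = 0.576). In the second E3.5 table it ranged from 0.698 to 1.53 FPKM in mKO and from 1.22 to 2.44 FPKM in WT, with 5 libraries each. Casc4 was thus below WT in all libraries of the first E3.5 table and overlapped WT in the second. Snx10 overlapped in both E3.5 tables and at the late 2-cell stage, with 6.55 and 0.719 FPKM in mKO against 3.98 and 0.907 in WT. Fgf4 differed by -0.09 at the late 2-cell stage and by -0.24 in the first E3.5 table. In the second it averaged 0.580 FPKM in mKO against 1.33 in WT, with overlapping libraries (log2 difference -0.57, limma adjusted p = 0.711). Serping1 was at most 0.889 FPKM in mKO and 1.44 in WT in these tables.

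Of the 203 genes lower at the 8-cell stage (unadjusted p under 0.05) that were also kept in the second E3.5 table, 22 (10.8%) were lower in mKO there too at an unadjusted p under 0.05, against 3.82% of the 7469 genes kept in both and 5.1% of all genes tested in that table. Of the 22, 7 are X-linked, against 35 of the 285 such genes among all genes kept in both. The genes given here were picked for this overlap after their values were seen. They include Oosp1, with 0.159 ± 0.218 FPKM in mKO, against 1.48 FPKM on average in WT at E3.5, and Id2, with 128 ± 60.4 FPKM in mKO, against 248 FPKM in WT (SD, n = 5). B2m, the light chain of MHC class I, averaged 12.5 FPKM in mKO and 30.0 FPKM in WT at E3.5, and differed by -1.10 on the log2 scale at the 8-cell stage. X-linked members were Trap1a, Hmgn5, which encodes a nucleosome-binding protein, and Pls3, an actin-bundling protein, with log2 differences of -1.43, -1.20 and -1.06 at the 8-cell stage and -2.37, -1.77 and -1.01 at E3.5. AA467197 and Mir147, which lies within it, differed by -2.10 and -2.33 at the 8-cell stage. AA467197 had 62.6, 19.9 and 39.9 FPKM in mKO, 90.9 in mHet, and 246 and 106 in WT at the 8-cell stage. None of these passed the adjusted threshold in either table.

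The other tables gave both directions. Of the genes lower at the 8-cell stage, 11 of 213 (5.16%) were lower at the late 2-cell stage at an unadjusted p under 0.05, against 4.83% of all genes kept in both, and 19 (8.92%) were higher there, against 2.50%. In the first table of E3.5, 7 of 203 (3.45%) were lower, against 0.902%, and 11 (5.42%) were higher, against 3.02%. Genes higher at the 8-cell stage were also higher at an unadjusted p under 0.05 for 6 of 82 (7.32%) at the late 2-cell stage, against 2.50% of all genes, and for 8 of 66 (12.1%) in the first E3.5 table, against 3.02%. They were lower for 4 (4.88%) and 2 (3.03%) in these tables, against 4.83% and 0.902%. The 8 consisted of 7 H2A histone genes and Cox7b2. The summed histone level was 551 and 603 FPKM in mKO against 379 and 472 FPKM in WT at the late 2-cell stage, and 1699 and 1900 FPKM in mKO against 655 and 644 FPKM in WT in the first E3.5 table. In the second E3.5 table the histone sums overlapped, at 387 to 1406 FPKM in mKO and 604 to 1938 FPKM in WT. In the first E3.5 table Y-linked transcripts summed to at most 0.151 FPKM in mKO and to 45.0 and 59.7 FPKM in WT, so sex and genotype cannot be told apart there. Over all genes tested in their own tables, the shares at an unadjusted p under 0.05 were 3.2% higher and 4.36% lower at the late 2-cell stage and 3.54% higher and 1.94% lower in the first E3.5 table. The adjusted threshold was passed by 1 gene, Ezhip, at the late 2-cell stage (0.00969%), and by 0.0407% of genes in the first and 0.0539% in the second E3.5 table.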

How the data were processed

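Per the labels, polyadenylated RNA of mouse 8-cell embryos was made into Smart-seq2 libraries, and a DNBSEQ-T7 system read them. The authors deposited FPKM per gene, that is reads scaled to gene length and library total; HISAT2 2.2.1, HTSeq 0.6.0 and Trim Galore 0.4.2 are named in the submitters' processing notes, with the builds mm9 and hg19 in no stated role. How FPKM were computed, on which annotation, and how strand and multi-mapping reads were handled was not given in the sources used here, so overlapping, antisense and near-identical genes are uncertain. FPKM are shares of a library, and read depth is unknown.

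Genes at 1 FPKM or more in 2 or more of 6 libraries were fitted on log2(FPKM + 1) with limma 3.58.1 in R 4.3.3 (group means of mKO, WT and mHet, eBayes with trend), and two-sided p-values were adjusted by Benjamini and Hochberg over 8319 genes, with a threshold of 0.05. The log2 scale understates the change of low genes. The fit was checked on simulated data. Alternatives changed the pseudocount, filter, scaling, libraries or covariates (replicate number, library-number set, or a sex term, the log2 summed level of 4 Y-linked transcripts). Named genes are those past the threshold and, in each direction, 12 with the smallest p, a mean of 2 FPKM or more in a group, libraries that do not overlap and no provisional symbol; of each list, up to 4 members with the smallest p. Members, lists and rules were chosen with earlier results of these data known. Chromosomes and promoters were matched by name in RefSeq (GRCm38.p6), for 99.7% of kept genes in the case of chromosomes. Gene classes by stage and the other stages come from 5 further tables, each fitted alone; the 2 tables of E4.25 and E6.5 were not used here. A protocol in the labels describes embryos cultured with the EZH2 inhibitor GSK343; no library used here carries that label.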

Additional observations from a re-analysis of the deposited data

Results flagged for a closer look

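For 7 named genes every library differed one way between mKO and WT at the 8-cell stage and the opposite way in another table. The share of all genes with such an opposite order is not given, so the count is not read as a result. The difference between stages was not tested, since the tables were normalized separately. At the late 2-cell stage (2 mKO and 2 WT libraries) the log2 difference was 0.51 for Oosp1, 0.55 for Cd209g and 1.31 for Gsta4, all lower in mKO at the 8-cell stage. Oosp1 was at 357 and 455 FPKM in mKO against 283 and 281 FPKM in WT at the late 2-cell stage. The difference there was -1.42 for Defb42, -0.73 for Nf2 and -1.10 for Ankmy2, all higher in mKO at the 8-cell stage. The groups of Nf2 barely separated at the late 2-cell stage, with 16.06 FPKM in the higher mKO library and 16.13 FPKM in the lower WT library. In the first E3.5 table Tppp3 was higher in mKO by 1.62, with 4.89 and 5.07 FPKM in mKO against 0.817 and 1.10 FPKM in WT. None of the 7 passed the adjusted threshold at either stage.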

How the results depend on the processing

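Beside 1 gene past the adjusted threshold, limma called 0 genes with a pseudocount of 0.1 (307 at an unadjusted p under 0.05), 0 without the filter (670), 0 with median-ratio scaling (382), 0 with a sex term (274), 0 in the libraries numbered 20 to 23 alone (443, chosen after seeing the data), 4 with the library-number set as a term, and 1 each with mKO and WT alone, without Rn45s and without the trend. Leaving out single libraries gave 0 to 3; the 3 came without mKO replicate 3. The sample titles number the replicates but do not pair them. The deviations of mKO and WT libraries with number 1 correlated at 0.30, those with number 2 at -0.17, and mKO replicate 3 with WT replicate 2 at 0.44. These values cannot decide whether samples are paired, since the deviations of 2 WT libraries mirror each other. With the replicate block, in which mKO replicate 3 has no partner, 123 genes passed (29 higher, 94 lower). The median difference of all genes moved to -0.21 without WT replicate 1 and to 0.11 without WT replicate 2. Of 309 values of the 24 named genes under alternatives, none changed sign, 20 newly passed and 9 no longer passed. The naming rule asked for libraries that do not overlap, so leaving out libraries or changing the pseudocount could not change the sign of a named gene. Of 310 list medians, 38 moved beyond the spread. The X-linked offset difference stayed between -0.42 and -0.11 under its alternatives. The cause of these shifts was not tested. Depth is unknown, so no counting error can be given.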
